A study of Homo sapiens with 9 samples.

Results

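Transcripts of the EGFR (ERBB) family of receptors and their ligands were followed in TE13 cells, an established esophageal squamous cell carcinoma (ESCC) line, after knockdown of the long noncoding RNA PARylator (LINC00885). The 10 genes were taken by symbol, with 1 entry per symbol, from the 60605 genes of the deposited table: the receptors EGFR, ERBB2 and ERBB3 and the ligands TGFA, AREG, EREG, HBEGF, BTC, EPGN and NRG1. All 10 passed the filter on low values, an average of 0.1 FPKM or more across the 9 libraries, that left 21395 genes to be tested.

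The study compared control siRNA, PARylator siRNA.1 and PARylator siRNA.2, each transfected into TE13 cells and each given by 3 libraries that the submitters call biological replicates. The libraries came from a single cell line, the 2 knockdown conditions were set against the same 3 control libraries, and the time from transfection to harvest of these RNA-seq libraries was not given in the sources used here. Poly(A)+ RNA was sequenced, and the authors deposited for each gene and library a raw count of reads and FPKM, the count scaled by exonic length and by the library total. FPKM is a level per length. The length is that of all annotated exons of a gene together, so a gene whose cells use short isoforms is listed too low beside another gene.

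The ERBB receptors are tyrosine kinases of the cell surface that pair with one another when a ligand binds, and pairing switches on the RAS to ERK and the PI3K to AKT pathways. The ligands are made as precursors in the membrane and released by ADAM proteases, so a cell can act on itself or on its neighbours. EGFR is a prominent receptor of squamous epithelium and is often overexpressed or amplified in ESCC.

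Total counts lay between 15337917 and 17899074 in the control libraries, between 15374616 and 17762752 with siRNA.1 and between 19213164 and 22559998 with siRNA.2. Counts of LINC00885, the targeted gene, were 6, 7 and 12 under control siRNA, 4, 5 and 2 under siRNA.1, and 2, 0 and 4 under siRNA.2. At so few counts its log2 fold changes of -1.21 and -2.33 did not pass edgeR's quasi-likelihood test with Benjamini-Hochberg adjustment (adjusted p 0.376 and 0.0659). Of 8 squamous epithelial markers, 8 reached 1 FPKM in the control cells, while 5 columnar markers summed to at most 0.13 FPKM in any library. The 8 stromal and blood cell markers summed to 2.34 to 2.87 FPKM under control siRNA, 1.88 to 2.15 under siRNA.1 and 1.94 to 2.46 under siRNA.2. COL1A1 (1.99 to 1.39 and 1.40 FPKM) and VWF (0.503 to 0.117 and 0.130 FPKM) were lower with both siRNAs and the leukocyte gene PTPRC was higher with both (0.0333 to 0.153 and 0.147 FPKM). The squamous markers summed to between 761 and 787.9 FPKM in the control libraries, 534.7 and 569.2 with siRNA.1, and 550.5 and 567.2 with siRNA.2. Of these 8, 4 were lower with both siRNAs, with the keratin gene KRT5 going from 142 to 40.0 and 55.8 FPKM and SFN from 305 to 180 and 182 FPKM, and 2 were higher with both, KRT6A (78.7 to 102 and 118 FPKM) and the desmosomal gene DSG3 (10.3 to 15.8 and 12.6 FPKM). Mitochondrial genes took 7.46% to 7.66% of the control counts, 4.99% to 5.06% of those under siRNA.1, and 5.54% to 5.56% of those under siRNA.2. These values moved with the conditions, and their part in the results on the ERBB genes was not tested. In RNA from whole cultures, a change in the number of cells that make a transcript and a change in the transcript per cell cannot be told apart.

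Most ligand transcripts rose with knockdown, while the receptor transcripts fell or moved little. With siRNA.1, 6 of the 7 ligands rose and 1, NRG1, fell. With siRNA.2, all 7 ligands rose, with log2 fold changes from 0.24 (HBEGF) to 1.59 (EPGN). Of the 3 receptors, ERBB3 fell with both siRNAs, ERBB2 fell with siRNA.2, and EGFR moved by -0.01 and 0.09 on the log2 scale.

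For siRNA.1 against control siRNA, 8 of the 10 genes passed an adjusted p of 0.05 in edgeR's quasi-likelihood test, 6 higher and 2 lower. Of all genes tested, 30.3% passed, 15% higher and 15.2% lower. For siRNA.2 against control siRNA, 10 of 10 passed, 8 higher and 2 lower, where 30.9% of all genes passed, 15.8% higher and 15.1% lower. Over the 10 genes the log2 fold changes had a median of 0.73 for siRNA.1 and of 0.45 for siRNA.2, beside -0.000565 and 0.00401 over all genes tested. Higher with both siRNAs were 6 of the 10 (TGFA, AREG, EREG, HBEGF, BTC and EPGN), beside 11.1% of all genes, and lower with both was 1 (ERBB3), beside 10.2% of all genes. Both comparisons used the same control libraries, so that an error in those libraries would enter both. Between the siRNAs, 6 of the 10 differed, 3 higher and 3 lower with siRNA.2, where 12.2% of all genes differed, 6.1% higher and 6.06% lower. These shares are over genes down to 0.1 FPKM, and a larger share of better expressed genes passed. In a fit of the 12532 genes averaging 1 FPKM or more, 5819 passed with siRNA.1, 5913 with siRNA.2 and 2533 between the siRNAs. Of the 10 genes, all of them in that fit, 8, 9 and 5 passed there. The 10 genes were chosen with earlier results of these data known, so their counts and medians beside all genes are a description.

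**Figure D1:**
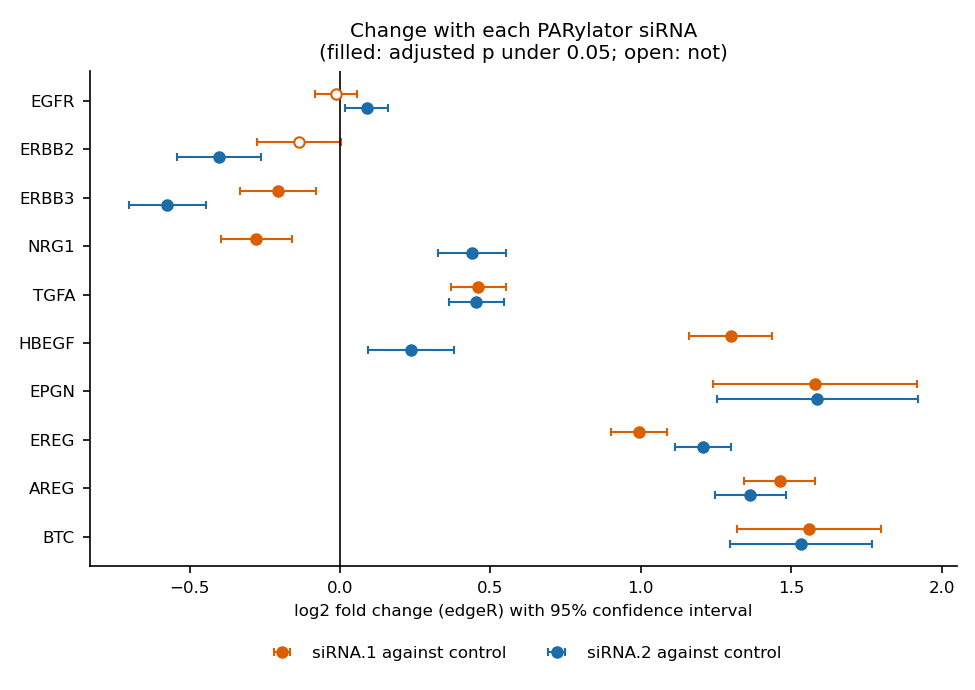
Log2 fold change of the 10 genes against control siRNA (x axis), with 95% confidence intervals from edgeR, for siRNA.1 (orange) and siRNA.2 (blue). Filled points passed an adjusted p of 0.05. AREG, BTC, EPGN and EREG lie at about 1 or above with both siRNAs, HBEGF lies at 1.30 for siRNA.1 but at 0.24 for siRNA.2, and NRG1 lies on opposite sides of 0.

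In control cells the receptor EGFR was the most abundant of the 10 transcripts at 60.3 ± 6.28 FPKM (SD, n = 3), in the 97.9th percentile of the 28065 genes with any control count. TGFA (34.7 FPKM), AREG (27.2 FPKM), EREG (20.7 FPKM) and HBEGF (11.7 FPKM) followed, then ERBB3 (6.30 FPKM), ERBB2 (5.41 FPKM), NRG1 (3.78 FPKM), BTC (2.81 FPKM) and EPGN (1.02 FPKM). No neighbours in this order had overlapping ranges among the 3 control libraries. With either siRNA, AREG stood first and EGFR second in FPKM, and their ranges did not overlap. The margin was narrow with siRNA.2, where the lowest AREG library was at 67.00 FPKM and the highest EGFR library at 66.81 FPKM. The places depend on exonic length, which is 1642 bases for AREG and 12507 for EGFR. In counts, EGFR lay above AREG in every library. With siRNA.1, TGFA, EREG, HBEGF and BTC came next, ahead of ERBB3, ERBB2, NRG1 and EPGN, where ERBB3 overlapped with ERBB2 and NRG1 overlapped with EPGN. With siRNA.2, EREG and TGFA overlapped, and BTC and NRG1 stood above ERBB3 and ERBB2, a pair whose ranges overlapped. BTC therefore passed from the ninth place to the sixth with both siRNAs, above both ERBB2 and ERBB3.

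**Figure D2:**
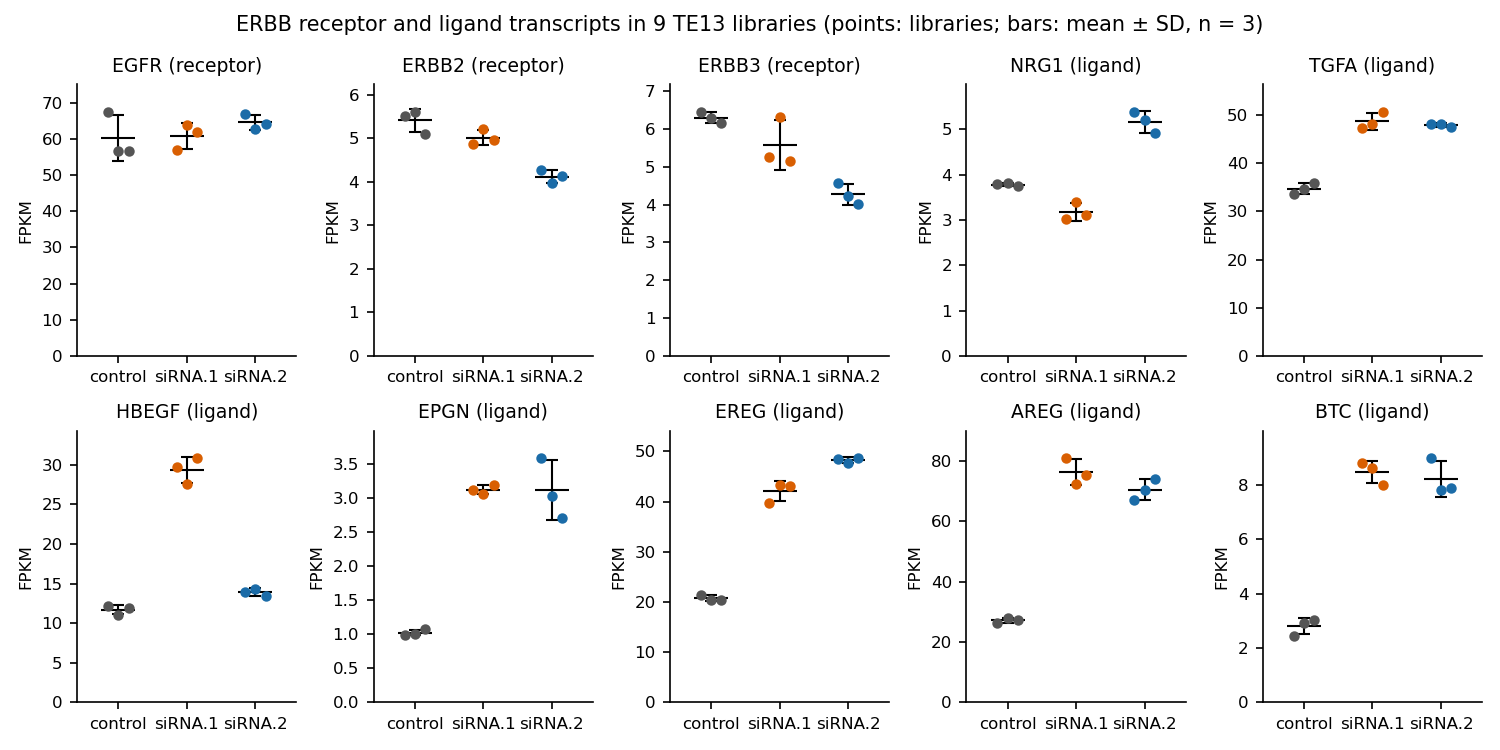
FPKM of each gene in every library (points) with the mean and SD of the 3 libraries per condition (bars), on axes that start at 0. The 3 points of each siRNA lie above all control points for TGFA, HBEGF, EPGN, EREG, AREG and BTC, and NRG1 lies below the controls with siRNA.1 and above them with siRNA.2.

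EGFR, the receptor of most of these ligands, was measured at 67.52, 56.58 and 56.69 FPKM in the control libraries, 56.92, 63.86 and 61.79 FPKM with siRNA.1, and 66.81, 62.76 and 64.13 FPKM with siRNA.2. The 3 conditions overlapped, and control replicate 1 lay above every other library. The log2 fold change of EGFR was -0.01 for siRNA.1 (95% confidence interval -0.08 to 0.06, adjusted p 0.842, edgeR) and 0.09 for siRNA.2 (0.02 to 0.16, adjusted p 0.0473), and the siRNAs differed by 0.10 (adjusted p 0.0423). The call with siRNA.2 was lost in 12 of 18 other settings, among them DESeq2 (adjusted p 0.483). The 12 include the fits without control replicate 2 (0.04, adjusted p 0.494), control replicate 3 (0.05, 0.466), siRNA.1 replicate 3 (0.09, 0.0621), siRNA.2 replicate 1 (0.08, 0.123) and siRNA.2 replicate 3 (0.09, 0.114). Without control replicate 1 the fold change with siRNA.2 was 0.18 (adjusted p 4.95e-05). EGFR counts lay between 11030 and 18096 per library. EGFR lies at chr7:55019017-55211628 (GRCh38, plus strand). EGFR-AS1 shares 186 exonic bases with it on the other strand, and its mean of 24.0 counts is small beside 13870 for EGFR.

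ERBB2 (HER2), which has no known ligand and acts as a partner of the other receptors, was at 5.51, 5.61 and 5.10 FPKM in the control libraries, 4.87, 5.21 and 4.96 FPKM with siRNA.1, and 4.26, 3.96 and 4.14 FPKM with siRNA.2. All siRNA.2 libraries lay below the other 6, while the siRNA.1 and control libraries overlapped. The log2 fold change was -0.40 ± 0.07 (SE) with siRNA.2 (adjusted p 1.81e-07, edgeR) and -0.14 with siRNA.1 (95% confidence interval -0.28 to 0.00, adjusted p 0.144), and the siRNAs differed by -0.27 (adjusted p 0.00325). ERBB2 (chr17:39687914-39730426, plus strand) shares 571 exonic bases with the opposite-strand gene MIEN1 and 144 with PGAP3. MIEN1 averaged 392 counts and PGAP3 54.2, beside 883.6 for ERBB2. Since the strand setting of the counting was not given in the sources used here, reads from these genes cannot be told apart there. The level of ERBB2 and its fold changes are uncertain to that extent.

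ERBB3 (HER3), a receptor for neuregulins with little kinase activity of its own that couples well to PI3K, was at 6.46, 6.30 and 6.15 FPKM in the control libraries, 5.25, 6.33 and 5.16 FPKM with siRNA.1, and 4.56, 4.24 and 4.02 FPKM with siRNA.2. With siRNA.2 every library lay below all others. With siRNA.1, 2 libraries lay below the controls and replicate 2 lay among them. The log2 fold change was -0.57 ± 0.07 (SE) with siRNA.2 (adjusted p 3.67e-17, edgeR) and -0.21 ± 0.06 with siRNA.1 (adjusted p 0.00674), and the difference of -0.37 between the siRNAs also passed (adjusted p 9.31e-07). The siRNA.1 call was lost without siRNA.1 replicate 1 (-0.17, adjusted p 0.0648), without siRNA.1 replicate 3 (-0.15, adjusted p 0.114) and in limma (adjusted p 0.173). ERBB3 lies at chr12:56076799-56103505 on the plus strand.

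The genes of EPGN (epigen), EREG (epiregulin), AREG (amphiregulin) and BTC (betacellulin) lie within 486.1 kb of chromosome 4, with EPGN at chr4:74308470-74316789, EREG at chr4:74365145-74388749, AREG at chr4:74445136-74455005 and BTC at chr4:74744759-74794523 (GRCh38). The first 3 are read from the plus strand and are separated by 48.35 and 56.39 kb, and BTC is read from the minus strand 289.8 kb beyond AREG. Their promoter windows are shown because these neighbouring genes rose together. Each window holds 250 bases before and 50 from the RefSeq start onward, is written 5′ to 3′ on the gene's strand and comes from GRCh38.p14, with EPGN at chr4:74308220-74308519, EREG at chr4:74364895-74365194, AREG at chr4:74444886-74445185 and BTC at chr4:74794474-74794773. Capitals mark matches on either strand to the TATA box letters TATAAA, to the CREB binding element TGACGTCA and to the AP-1 element TGANTCA.
EPGN: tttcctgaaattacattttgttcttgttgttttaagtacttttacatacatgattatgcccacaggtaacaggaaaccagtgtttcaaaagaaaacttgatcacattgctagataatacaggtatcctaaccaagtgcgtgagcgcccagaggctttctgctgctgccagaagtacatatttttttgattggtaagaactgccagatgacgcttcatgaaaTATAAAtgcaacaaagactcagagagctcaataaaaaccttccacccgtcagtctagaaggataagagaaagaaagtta
EREG: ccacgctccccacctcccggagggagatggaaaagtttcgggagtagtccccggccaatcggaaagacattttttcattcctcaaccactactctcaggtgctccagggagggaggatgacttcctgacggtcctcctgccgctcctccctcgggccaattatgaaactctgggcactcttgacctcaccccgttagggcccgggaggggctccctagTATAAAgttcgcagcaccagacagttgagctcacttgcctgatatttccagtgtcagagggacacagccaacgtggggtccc
AREG: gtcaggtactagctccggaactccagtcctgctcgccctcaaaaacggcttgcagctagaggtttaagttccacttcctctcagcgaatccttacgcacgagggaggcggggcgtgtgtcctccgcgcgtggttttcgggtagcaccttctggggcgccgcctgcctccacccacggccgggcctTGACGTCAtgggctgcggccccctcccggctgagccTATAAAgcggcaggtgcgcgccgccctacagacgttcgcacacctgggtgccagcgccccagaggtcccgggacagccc
BTC: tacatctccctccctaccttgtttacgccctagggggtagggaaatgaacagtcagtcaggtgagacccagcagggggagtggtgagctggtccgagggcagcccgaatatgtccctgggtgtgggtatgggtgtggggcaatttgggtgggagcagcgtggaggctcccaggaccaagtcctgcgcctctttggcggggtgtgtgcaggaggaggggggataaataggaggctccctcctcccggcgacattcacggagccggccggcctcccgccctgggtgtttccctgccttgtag

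TATAAA began 29 bases before the start in EPGN and AREG and 32 bases before it in EREG, on the gene's own strand, a position of 25 to 35 bases held by 2.17% of 35116 RefSeq promoter windows of the same length. BTC held no TATAAA in its window. AREG alone among the 10 windows of 8 members in the RefSeq table held TGACGTCA, 65 bases before the start, as did 1.85% of all windows. TGANTCA, present in 7.71% of all windows, was in none of these 4, and GGGCGG (GC box, 45.0% of all windows, either strand) was found once in AREG and once in BTC. HBEGF and TGFA held no TATAAA, with 5 GC boxes in HBEGF and 4 in the first of 2 TGFA windows. The GC content of the EPGN window was 37.7%, beside 57.7% in EREG, 66.3% in AREG, 63.0% in BTC and a median of 58.7% over all windows. ERBB3 and NRG1 had no window in the table. These matches are a description of letters, and binding was not measured.

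AREG, a ligand of EGFR that is made in injured and inflamed epithelium, was at 26.40, 28.01 and 27.22 FPKM in the control libraries, 80.98, 72.49 and 75.45 FPKM with siRNA.1, and 67.00, 70.46 and 74.10 FPKM with siRNA.2. Every siRNA library lay far above the highest control, and the siRNA groups overlapped with each other. AREG rose 2.75-fold with siRNA.1 (log2 fold change 1.46 ± 0.06 SE, adjusted p 3.61e-127, edgeR) and 2.57-fold with siRNA.2 (1.36 ± 0.06, adjusted p 6.61e-112). The difference between the siRNAs was -0.10 (95% confidence interval -0.21 to 0.01, adjusted p 0.302).

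EREG, a ligand of EGFR and ERBB4, was at 21.44, 20.32 and 20.48 FPKM in the control libraries, 39.80, 43.39 and 43.16 FPKM with siRNA.1, and 48.45, 47.59 and 48.65 FPKM with siRNA.2. The 3 conditions were fully separate, in the order control, siRNA.1, siRNA.2. EREG rose 1.99-fold with siRNA.1 (log2 fold change 0.99 ± 0.05 SE, adjusted p 7.45e-94, edgeR) and 2.31-fold with siRNA.2 (1.21 ± 0.05, adjusted p 6.91e-140), and the further rise of 0.21 with siRNA.2 passed its own test (adjusted p 8.75e-05).

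BTC, a ligand of EGFR and ERBB4, was at 2.46, 2.93 and 3.05 FPKM in the control libraries, 8.81, 8.61 and 8.01 FPKM with siRNA.1, and 8.99, 7.81 and 7.90 FPKM with siRNA.2. EPGN, a ligand of EGFR found mostly in epithelium, was at 0.99, 1.01 and 1.07 FPKM in the control libraries, 3.11, 3.06 and 3.19 FPKM with siRNA.1, and 3.58, 3.03 and 2.71 FPKM with siRNA.2. For both genes the siRNA libraries lay far above the controls and overlapped with each other. BTC rose 2.95-fold with siRNA.1 and 2.89-fold with siRNA.2 (log2 fold change 1.56 ± 0.12 SE, adjusted p 2.98e-35, and 1.53 ± 0.12, adjusted p 7.88e-35, edgeR). EPGN rose 2.99-fold and 3.00-fold (1.58 ± 0.17, adjusted p 2.36e-18, and 1.59 ± 0.17, adjusted p 5.01e-19), from 50 to 63 counts per control library. The intervals of EPGN and BTC overlap, and limma on log2(FPKM + 1), which shrinks the change of low genes, gave EPGN 1.03 and 1.02. Neither gene differed detectably between the siRNAs, with differences of -0.03 for BTC (95% confidence interval -0.23 to 0.18) and 0.01 for EPGN (-0.28 to 0.30).

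Within 500 kb on either side of these ligand genes lie 29 other genes, of which 13 had no count in any library and 10 were tested. Higher with both siRNAs were 3 of the 10 (11.1% of all genes), the neutrophil chemokine genes CXCL1, CXCL2 and CXCL3, and none was lower with either siRNA. CXCL1 rose from 89.8 FPKM in control cells to 122 and 157 FPKM (log2 fold change 0.41 and 0.79, adjusted p 2.99e-15 and 9.13e-57, edgeR). CXCL2 rose from 1.66 to 3.88 and 5.94 FPKM (1.21 and 1.83), and CXCL3 from 0.76 to 1.25 and 2.01 FPKM (0.71 and 1.39). The CXCL3 call with siRNA.1 was close to the threshold (adjusted p 0.0363), and siRNA.1 replicate 2 (0.82 FPKM) lay among the controls (0.70 to 0.87 FPKM). With siRNA.2, CXCL5 (1.27, adjusted p 0.0164) and the mitochondrial folate enzyme gene MTHFD2L (0.45, adjusted p 0.00212) were also higher. On the far side of BTC no tested gene passed, with PARM1 at -0.53 (adjusted p 0.118) and -0.17 (adjusted p 0.682), LINC02562 at -0.09 and 0.42 (adjusted p 0.884 and 0.320), and ENSG00000251185, a gene without a symbol, at 2.27 and 2.02 (adjusted p 0.0879 and 0.139). The last had 0, 4 and 0 counts under control siRNA, 10, 6 and 6 under siRNA.1, and 9, 7 and 6 under siRNA.2, so that every siRNA library lay above the controls at very few counts. Against siRNA.1, siRNA.2 gave higher levels of CXCL1, CXCL2 and CXCL3, by 0.38, 0.62 and 0.68 on the log2 scale (adjusted p 2.96e-13, 0.00742 and 0.0425).

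**Figure D3:**
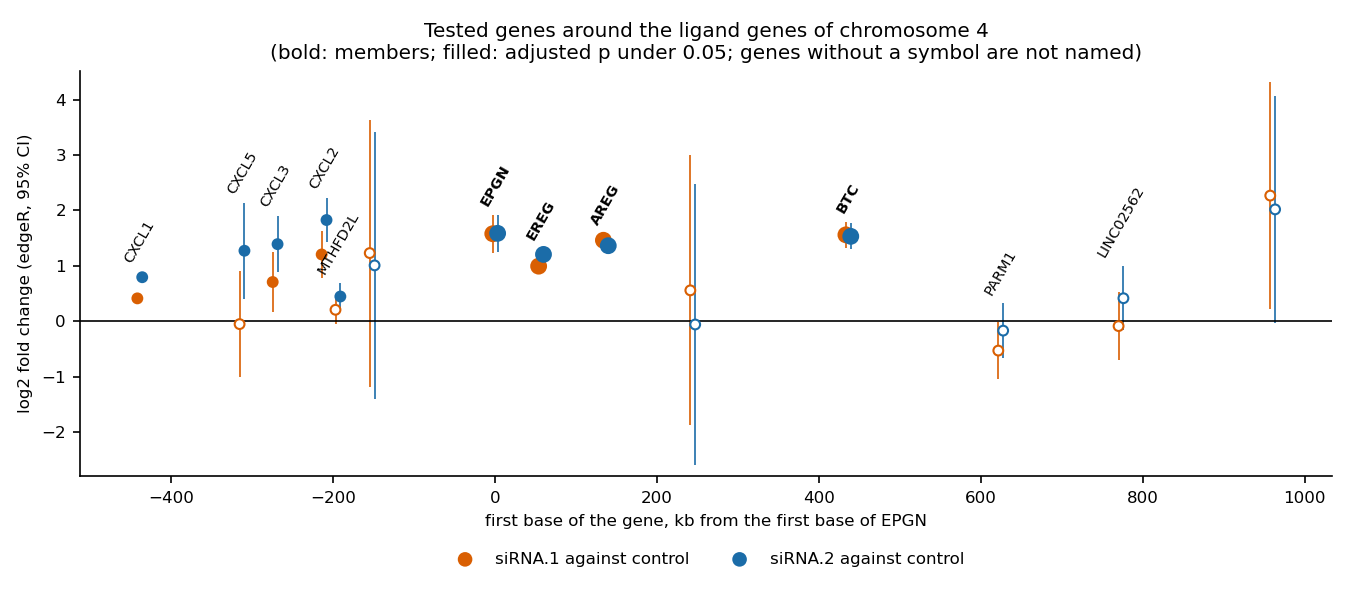
Log2 fold change (y axis, edgeR, with 95% confidence intervals) of the tested genes around EPGN, EREG, AREG and BTC against the distance of each gene's first base from that of EPGN in kb (x axis), for siRNA.1 (orange) and siRNA.2 (blue). The 4 ligand genes lie between 0.99 and 1.59, CXCL1, CXCL2 and CXCL3 also passed with both siRNAs, and the genes beyond BTC have open points.

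TGFA (transforming growth factor alpha), a ligand of EGFR that many carcinoma cells make for themselves, was at 33.67, 34.74 and 35.83 FPKM in the control libraries, 47.32, 48.11 and 50.71 FPKM with siRNA.1, and 48.17, 48.18 and 47.47 FPKM with siRNA.2. The siRNA libraries all lay above the controls and overlapped with each other. TGFA rose 1.38-fold and 1.37-fold (log2 fold change 0.46 ± 0.05 SE, adjusted p 2.18e-21, and 0.45 ± 0.05, adjusted p 5.36e-21, edgeR), and the difference between the siRNAs was -0.01 (95% confidence interval -0.10 to 0.08, adjusted p 0.966). Its gene lies at chr2:70447284-70554193 on the minus strand.

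HBEGF (heparin-binding EGF-like growth factor), a ligand of EGFR and ERBB4, was at 12.17, 11.05 and 11.90 FPKM in the control libraries, 29.69, 27.52 and 30.84 FPKM with siRNA.1, and 14.00, 14.33 and 13.39 FPKM with siRNA.2. The 3 conditions were separate, with siRNA.2 close above the controls and siRNA.1 far above both. HBEGF rose 2.46-fold with siRNA.1 (log2 fold change 1.30 ± 0.07 SE, adjusted p 9.82e-74, edgeR) and 1.18-fold with siRNA.2 (0.24 ± 0.07, adjusted p 0.00538). The siRNAs differed by -1.06 ± 0.07 (adjusted p 2.47e-52), the largest difference between them among the 10 genes. Without control replicate 2 the rise with siRNA.2 was 0.19 (adjusted p 0.0564). HBEGF lies at chr5:140332843-140346603 on the minus strand.

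NRG1 (neuregulin 1), a ligand of ERBB3 and ERBB4 rather than EGFR, moved in opposite directions with the siRNAs. It was at 3.79, 3.81 and 3.74 FPKM in the control libraries, 3.03, 3.40 and 3.11 FPKM with siRNA.1, and 5.39, 5.20 and 4.91 FPKM with siRNA.2. No conditions overlapped, with siRNA.1 lowest and siRNA.2 highest. NRG1 fell by 0.28 on the log2 scale with siRNA.1 (SE 0.06, adjusted p 2.92e-05, edgeR) and rose by 0.44 with siRNA.2 (SE 0.06, adjusted p 6.21e-13), a difference of 0.72 ± 0.06 (adjusted p 8.22e-32). It was the only one of the 10 genes called in opposite directions.

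Of the remaining family genes, 4 were near the limit of detection and NRG4 was low. EGF, ERBB4 and NRG2 had at most 14 counts in any library and NRG3 had 0 in all 9, so none of these 4 was tested. NRG4, a ligand of ERBB4, was at 0.457 FPKM in control cells, 0.217 FPKM with siRNA.1 and 0.200 FPKM with siRNA.2, and fell by 1.10 (SE 0.38, adjusted p 0.0151, edgeR) and 1.20 (SE 0.37, adjusted p 0.00590) on the log2 scale.

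Summed over the 7 ligands, the control libraries held between 100.9 and 103.3 FPKM, the siRNA.1 libraries between 206.6 and 214.5 FPKM, and the siRNA.2 libraries between 195.6 and 199.1 FPKM. The 3 receptors together stayed between 67.94 and 79.49 FPKM in control cells, 67.04 and 75.40 FPKM with siRNA.1, and 70.96 and 75.63 FPKM with siRNA.2, so that their ranges overlapped. EGFR gave most of this sum, with a mean of 60.3 of 72.0 FPKM in control cells. ERBB2 and ERBB3, which fell with siRNA.2, weigh little in it. The ligand mixture also changed. TGFA was the leading ligand of control cells, with 34.1% ± 0.664 (SD, n = 3) of the ligand FPKM, and fell to 23.1% ± 0.728 and 24.3% ± 0.425 as AREG went from 26.7% ± 0.722 to 36.1% ± 1.69 and 35.8% ± 1.48. HBEGF held 11.5% in control cells, 13.9% after siRNA.1 and 7.06% after siRNA.2, and EREG held 20.3%, 19.9% and 24.5%. The smallest shares of FPKM were those of BTC (2.76%, 4.01% and 4.18%), EPGN (1.00%, 1.48% and 1.58%) and NRG1 (3.71%, 1.51% and 2.62%). NRG1 has an exonic length of 21398 bases beside 1642 for AREG, and FPKM divides by that length. In counts, NRG1 (1243, 1272 and 1432) lay above AREG (665, 717 and 800) in the control libraries. These shares are a description with no test.

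**Figure D4:**
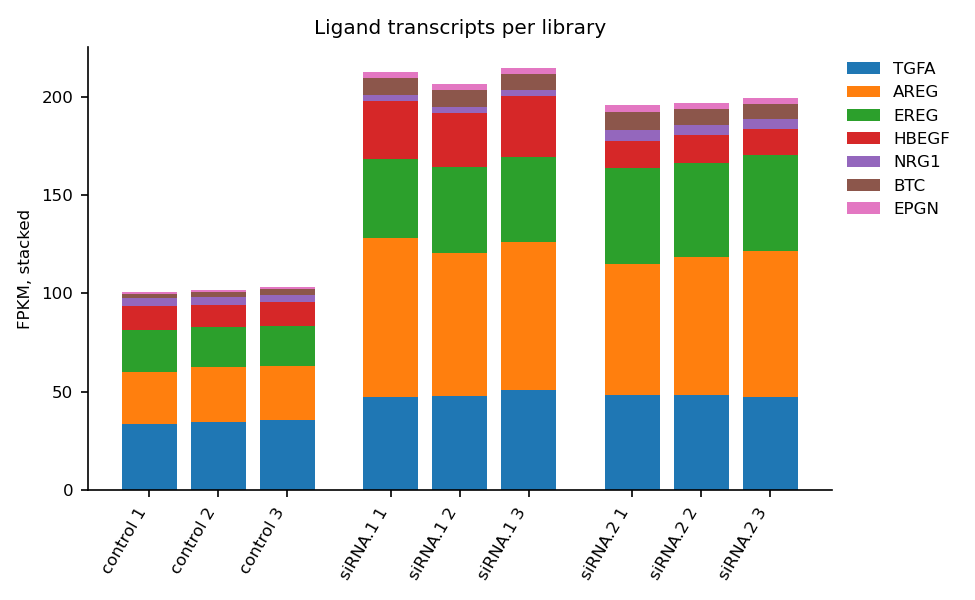
FPKM of the 7 ligands stacked for each of the 9 libraries (y axis from 0). The control bars end between 100.9 and 103.3 FPKM and the siRNA bars between 195.6 and 214.5 FPKM. AREG gives the thickest layer with both siRNAs, and the HBEGF layer is thicker with siRNA.1 than with siRNA.2.

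Genes around the receptors were read from 4 lists of the pathway. The lists were chosen with earlier results of these data known, so their counts are a description. Their counts stand beside 15% higher and 15.2% lower of all genes for siRNA.1, 15.8% and 15.1% for siRNA.2, and 11.1% higher and 10.2% lower in both comparisons. Most list genes reached 1 FPKM in control cells (7 of 8, 12 of 14, 24 of 27 and 15 of 16, in the order below). Of the 12532 genes averaging 1 FPKM or more, a larger share passed in either direction, 5819 with siRNA.1 and 5913 with siRNA.2. Of 8 genes of ligand shedding, 2 were higher and 2 lower with siRNA.1, and 1 higher and 4 lower with siRNA.2. The metalloprotease gene ADAM15 rose with both (22.7 FPKM in control cells, 32.2 and 30.6 FPKM, log2 fold change 0.47 and 0.42) and FRMD8, whose product steadies the iRhom and ADAM17 complex, fell with both by 0.36 and 0.36. ADAM17, the main protease that releases AREG, EREG, TGFA and HBEGF, was at 7.10, 6.57 and 6.49 FPKM, with log2 fold changes of -0.14 and -0.14 that did not pass (adjusted p 0.0747 and 0.0655, edgeR). The list medians were -0.14 and -0.20.

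Of 14 genes listed for receptor attenuation and turnover, 4 were higher and 4 lower with siRNA.1, and 5 higher and 3 lower with siRNA.2, with 4 higher and 3 lower with both. UBASH3B, which is on the list as a regulator of turnover and slows rather than speeds the degradation of EGFR, rose from 4.87 to 8.97 and 7.11 FPKM (log2 fold change 0.85 and 0.53), the receptor phosphatase gene PTPRJ from 1.31 to 1.85 and 1.80 FPKM (0.47 and 0.45), and RNF41, the ubiquitin ligase that acts on ERBB3, from 6.75 to 8.96 and 9.68 FPKM (0.38 and 0.51). ERRFI1 (MIG6), a feedback inhibitor of the EGFR kinase, fell from 88.7 to 69.4 and 63.4 FPKM (-0.38 and -0.50, adjusted p 1.61e-17 and 2.73e-29, edgeR). Its ranges in the 3 conditions did not overlap. The list medians were -0.08 and -0.08.

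Of 27 genes of the adaptors and the kinase cascade, 2 were higher and 9 lower with siRNA.1, and 1 higher and 12 lower with siRNA.2, with list medians of -0.15 and -0.15. Among those called alike with both were the PI3K regulatory subunit gene PIK3R3 (log2 fold change -0.98 and -0.63, from 0.717 FPKM), the kinase gene BRAF (0.59 and 0.37, from 1.47 to 2.24 and 1.91 FPKM) and the PI3K catalytic subunit gene PIK3CB (-0.67 and -0.23, from 9.59 to 6.13 and 8.24 FPKM). BRAF was the only one of the 27 that was higher with both, and 7 were lower with both.

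Of 16 genes known as transcriptional targets of ERK, 10 were higher and 2 lower with siRNA.1, and 10 higher and 2 lower with siRNA.2. With both siRNAs 9 were higher and 2 lower, and the list medians were 0.36 and 0.40. DUSP4, an ERK phosphatase, rose from 5.05 FPKM to 15.1 and 12.1 FPKM (log2 fold change 1.56 and 1.25, adjusted p 2.59e-127 and 1.94e-81, edgeR). DUSP5, another ERK phosphatase, rose from 12.9 to 25.9 and 26.7 FPKM (0.98 and 1.04), the feedback inhibitor SPRY2 from 4.06 to 6.80 and 8.17 FPKM (0.72 and 1.00), and the ETS factor ETV4 from 9.46 to 18.5 and 15.5 FPKM (0.94 and 0.70). The 2 that fell were the cyclin gene CCND1 (113 to 92.5 and 89.1 FPKM, -0.32 and -0.35) and the early growth response gene EGR1 (13.6 to 7.16 and 9.04 FPKM, -0.96 and -0.60). ERK activity itself was not measured in these libraries.

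**Figure D5:**
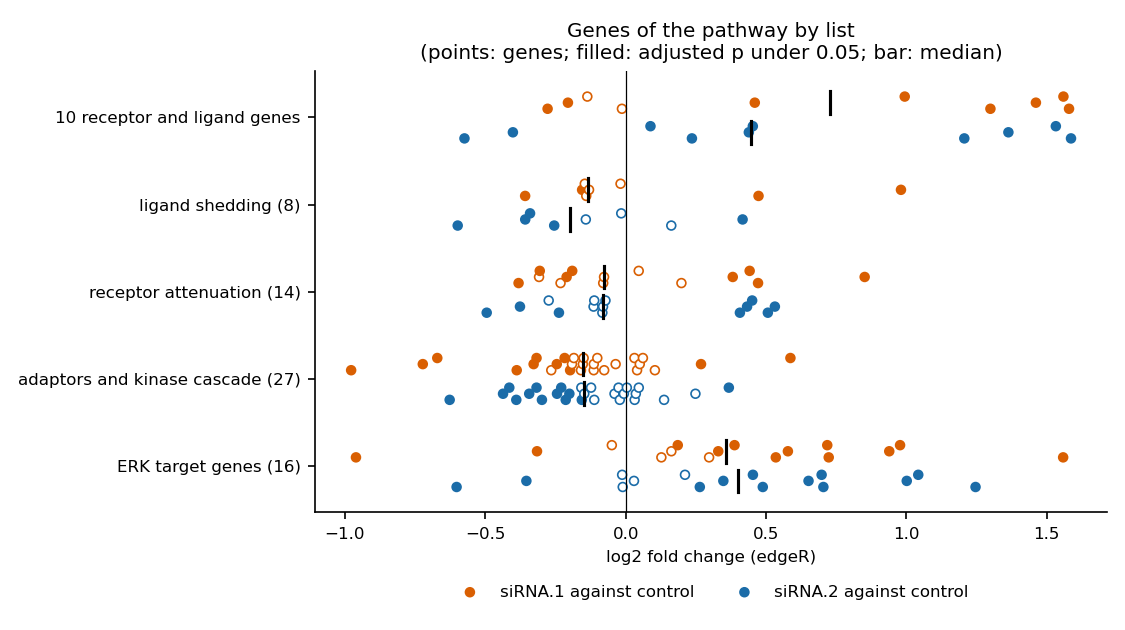
Log2 fold change against control siRNA (x axis) of the 10 receptor and ligand genes and of the tested genes of the 4 lists, with siRNA.1 in orange above siRNA.2 in blue. Each point is 1 gene, filled points passed an adjusted p of 0.05, and black bars are medians. The ERK target genes have medians of 0.36 and 0.40, and the medians of the other 3 lists lie between -0.20 and -0.08.

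The genes most like AREG and EGFR, the ligand and the receptor of highest mean FPKM over the 9 libraries, were taken by the Pearson correlation of log2 CPM (counts scaled to the library total) over the 9 libraries, among the 11868 named genes that averaged 1 FPKM or more. For AREG these were the ubiquitin-like interferon response gene ISG15 (r = 0.997), the transcription factor gene MYC (r = 0.997) and the zinc exporter gene SLC30A1 (r = 0.996). With 3 libraries at a low and 6 at a high level, 1083 genes had r over 0.9. ISG15 went from 100 FPKM in control cells to 506 and 425 FPKM, MYC from 45.1 to 82.8 and 80.7 FPKM, and SLC30A1 from 3.25 to 8.33 and 7.52 FPKM. For EGFR the likest were the receptor gene GPR75 (r = 0.957) and the ubiquitin ligase genes HERC2 (r = 0.950) and HUWE1 (r = 0.950), and only 8 genes had r over 0.9. The libraries of a condition share their treatment, so the correlations are given as a description.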

How the data were processed

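RNA-seq of 9 TE13 libraries was analysed, 3 each with control siRNA, PARylator siRNA.1 and PARylator siRNA.2, grouped by their titles. Per the study's methods, the authors checked reads with FastQC, aligned them to GRCh38 with STAR and counted them with featureCounts, while versions, annotation release and strand setting were not given in the sources used here. For every gene and library the authors deposited a raw count, not normalized. The authors also deposited FPKM per gene, and FPKM recomputed from count, exonic length and library total differed from it by at most 0.005. The deposited table was used without other per-library columns being set aside. The members and gene lists were chosen with earlier results of these data known.

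Counts were tested in R 4.3.3 with edgeR 4.0.16 (TMM, quasi-likelihood F test, all 3 conditions in 1 fit) on the 21395 genes that averaged 0.1 FPKM or more. p-values were adjusted over all of them by Benjamini-Hochberg and called under 0.05. Standard errors were obtained from the log2 fold change and F, as its size over the root of F. DESeq2 1.42.0, limma 3.58.1 on log2(FPKM + 0.1) and log2(FPKM + 1), other scalings, filters, a replicate block and leaving out each library were the alternatives. The tests were checked on simulated data. Total counts were 15337917 to 22559998 per library. Counting error weighs most on genes with few counts, and its size beside the spread between libraries was not tested. Sums and shares of FPKM, positions and promoter letters (RefSeq, GRCh38.p14) were computed in Python 3.11.15, and positions of the 10 genes were the same in GENCODE release 44.

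Named genes were the 10 members, 5 other family genes, LINC00885, the genes within 500 kb of the chromosome 4 ligands, the 3 genes with a symbol most correlated with the receptor and the ligand of highest mean FPKM over the 9 libraries (EGFR and AREG), and from each list up to 4 genes with the largest mean change among those called alike with both siRNAs. A gene chosen by this rule is not reported here. Genes named beside this rule (ADAM17, CCND1, EGR1, the cell type markers and genes that overlap a member) were chosen after their values were seen.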

Additional observations from a re-analysis of the deposited data

Results flagged for a closer look

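For 6 of the 10 genes the effects of the siRNAs against the same control libraries differed by a test of the difference itself (siRNA.2 minus siRNA.1, edgeR's quasi-likelihood test with Benjamini-Hochberg adjustment over all genes). HBEGF differed by -1.06 (adjusted p 2.47e-52), with all 3 siRNA.2 libraries below all 3 siRNA.1 libraries. NRG1 differed by 0.72 (adjusted p 8.22e-32), with siRNA.1 below and siRNA.2 above every control library. ERBB3 differed by -0.37 (adjusted p 9.31e-07) and ERBB2 by -0.27 (adjusted p 0.00325), and in both genes the siRNA.2 libraries lay below all siRNA.1 libraries. The ERBB2 difference carries the limit given above for the bases shared with MIEN1 and PGAP3.

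EREG differed by 0.21 (adjusted p 8.75e-05), with all siRNA.2 libraries above all siRNA.1 libraries. EGFR differed by 0.10 (adjusted p 0.0423), but its libraries overlapped. The EGFR call was lost without siRNA.1 replicate 1 (0.06, adjusted p 0.419), siRNA.1 replicate 3 (0.11, 0.0684), siRNA.2 replicate 1 (0.09, 0.116), siRNA.2 replicate 2 (0.12, 0.053) or siRNA.2 replicate 3 (0.10, 0.126), and in 13 of 18 other settings in all. The siRNA groups also had different ranges of depth and of mitochondrial share, and the part of these in the differences was not tested. The LINC00885 difference between the siRNAs was -1.13 (adjusted p 0.624), with overlapping counts.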

How the results depend on the processing

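Each value of the 10 genes was recomputed under 18 other settings, 9 of which left out 1 library, which gave 540 values. Of these, 493 kept their direction and their side of the threshold, 30 kept their direction and lost the call, and 17 changed sign, all of them values near 0 that were not called. EGFR with siRNA.1 (reported as -0.01) became 0.02 with either limma setting (0.01747 and 0.01717) and 0.01432 with library totals only, and lay between -0.0575 and 0.0763 with each library left out. The EPGN difference between the siRNAs (0.01) became -0.00222 with DESeq2, -0.01472 and -0.01001 with limma, -0.00275 with relative log expression factors, -0.007544 with library totals only and -0.000534 with genes of a mean of at least 1 FPKM, and lay between -0.0938 and 0.0933 with each library left out. With each library left out, the difference was -0.0811 to 0.00657 for BTC and -0.0244 to 0.0243 for TGFA.

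The calls that were lost were those of EGFR with siRNA.2 (12 settings) and between the siRNAs (13), ERBB3 with siRNA.1 (4) and HBEGF with siRNA.2 (1). Called members numbered 7 to 8 with siRNA.1, 8 to 10 with siRNA.2 and 5 to 6 between the siRNAs. Of all genes, 2603 differed between the siRNAs, beside 1437 and 1414 with limma on log2(FPKM + 0.1) and log2(FPKM + 1), and 1908 to 2696 with each library left out. The share of them that was higher with siRNA.2 was 50.2%, beside 41.4% to 51.7% under other settings, and no setting moved the median of all genes by over 0.1 on the log2 scale. Same-numbered libraries did not deviate together (correlations of -0.118 to 0.0543, 0 of 9 over 0.1), and 5 of 18 comparisons found the closest library under the same number. With the replicate number as a block, 8, 9 and 5 members were called, with EGFR lost in both its comparisons (adjusted p 0.0676 and 0.0797), and 6215, 6359 and 2342 of all genes. LINC00885 and the untested family genes had few or no counts, and the part of depth in this was not tested. NRG4, called lower with both siRNAs, also had few counts (32, 28 and 53 under control siRNA).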
